A study of Mus musculus with 12 samples.

Results

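The 10 genes described here encode the transcription regulators and close effectors of the ATF4 and CHOP stress pathway: Atf4, Atf5, Atf3, Ddit3 (which encodes CHOP), Trib3, Nupr1, Cebpb, Cebpg, Ppp1r15a and Chac1. They were chosen by name from what is known of this pathway, but with earlier results of these data known. Their counts beside the shares over all genes are therefore a description. All 10 were found among the 12643 genes measured. RNA came from MIN6 cells, a mouse insulinoma line used as a model of pancreatic beta cells, at passage 29 and 72 h after nucleofection. One siRNA was directed against Pdx1, a transcription factor that beta cells need for insulin gene expression and identity, and the other was a control called NT. Each was followed by translating ribosome affinity purification (TRAP), in which ribosomes are pulled down through a tagged ribosomal protein with the mRNAs on them; which protein was tagged is not stated. This gave 4 groups of 3 libraries: Pdx1 siRNA IP RNA (bound to the purified ribosomes), NT IP RNA, Pdx1 siRNA total RNA and NT total RNA. All groups share the same line, so the results describe 1 line of tumour origin, and what the siRNA did to proteins was not measured here.

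ATF4 is the central transcription factor of the integrated stress response. Kinases that sense ER stress, amino acid shortage, heme shortage or double-stranded RNA phosphorylate the translation factor eIF2α, which lowers general protein synthesis but raises translation of mRNAs with upstream open reading frames, among them those of Atf4, Atf5, Ddit3 and Ppp1r15a. ATF4 pairs with C/EBP-family proteins on composite DNA elements and turns on genes for amino acid supply as well as Ddit3, Trib3, Atf3, Chac1 and Nupr1. GADD34, the product of Ppp1r15a, closes the loop by directing a phosphatase to eIF2α. Beta cells make large amounts of secretory protein and are known to depend on this pathway, which protects them under mild stress and can lead to cell death through CHOP when stress persists.

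Promoter windows from RefSeq (GRCm38.p6, from 250 bases before to 50 bases after the annotated start) were available for all 10 genes, and are shown where they hold a motif that such factors are known to bind. The C/EBP-ATF composite motif TGATGNAA, searched on both strands, was matched in 4 of the 10 genes, Atf3, Trib3, Nupr1 and Chac1, against 2.24% of the 12923 windows of measured genes and 3.97% of all 32851 windows. The cAMP response element TGACGTCA was matched in Ppp1r15a, with 3.11% of the windows of measured genes holding one, and the AP-1 motif TGANTCA in Ddit3, with 4.76%. The ER stress element (ERSE) was matched in none of the 10 and in 0.14% of the windows of measured genes. No window of Atf4, Atf5, Cebpb or Cebpg held any of these letters, and no match overlapped another. A match is a description of letters in a window, not of binding.

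The stretches around the matches follow, each read 5′ to 3′ on the gene's strand with the motif in capitals. They are chr1:191183390-191183489 for Atf3 (minus strand), chr7:126625527-126625626 for Nupr1 (minus), chr2:119351003-119351102 for Chac1 (plus), chr2:152344028-152344057 for Trib3 (minus), chr7:45526269-45526368 for Ppp1r15a (minus) and chr10:127290543-127290642 for Ddit3 (plus). The composite motif lies 110 to 103 bases before the start in both Atf3 and Nupr1, 193 to 186 bases before it in Chac1 and 15 to 22 bases after it in Trib3.
Atf3: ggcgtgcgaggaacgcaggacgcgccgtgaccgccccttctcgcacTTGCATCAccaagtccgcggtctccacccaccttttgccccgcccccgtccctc
Nupr1: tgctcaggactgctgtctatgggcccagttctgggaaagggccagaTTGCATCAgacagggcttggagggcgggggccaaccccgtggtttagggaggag
Chac1: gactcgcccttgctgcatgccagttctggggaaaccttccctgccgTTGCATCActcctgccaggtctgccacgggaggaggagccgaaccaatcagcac
Trib3: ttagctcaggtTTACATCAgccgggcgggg
Ppp1r15a: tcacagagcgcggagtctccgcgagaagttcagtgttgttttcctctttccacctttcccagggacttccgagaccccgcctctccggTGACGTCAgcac
Ddit3: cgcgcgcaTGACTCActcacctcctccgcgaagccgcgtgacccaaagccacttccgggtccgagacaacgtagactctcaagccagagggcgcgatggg

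The libraries held 29430690 to 45806807 counts over the measured genes, and levels are given as CPM, counts scaled to a common library size by TMM. Pdx1 itself was 2.29-fold lower with Pdx1 siRNA in total RNA and 2.42-fold lower in IP RNA, with no overlap between libraries. All 12 beta-cell markers were measured, with a summed level of 120000 to 128100 CPM in Pdx1 siRNA total RNA and 118400 to 128700 CPM in NT total RNA. In IP RNA it was 201700 to 250500 CPM in Pdx1 siRNA IP RNA and 215100 to 249700 CPM in NT IP RNA. The most abundant markers dominate these sums, which hide single changes. With Pdx1 siRNA, 3 of the 12 were higher and 4 lower in total RNA (adjusted p under 0.05 in edgeR). Over all genes 23.8% were higher and 29.2% lower. In IP RNA 2 were higher and 6 lower, where 29.2% and 30.4% were. Chga averaged 23670 CPM in Pdx1 siRNA total RNA and 12330 CPM in NT total RNA, while Mafa averaged 40.5 CPM and 78.0 CPM. Of 18 markers of other pancreatic and stromal cells only the hormone genes Gcg and Ppy were measured, the other 16 not being analysed here. Their sum was 2881 to 3290 CPM in Pdx1 siRNA total RNA, 750.6 to 785.0 CPM in NT total RNA, 5253 to 5951 CPM in Pdx1 siRNA IP RNA and 1494 to 1537 CPM in NT IP RNA. Their part in the results was not tested. A set of 4 IP libraries, NT replicate 3 and all 3 Pdx1 siRNA replicates, stands apart from NT IP replicates 1 and 2 at genes with near-identical copies. Rpl32l, for example, had 22 to 37 counts in the Pdx1 siRNA IP libraries and 29 in NT IP replicate 3, against 1726 and 1260 in NT IP replicates 1 and 2. None of the 10 stress genes has such a copy, and in NT IP replicate 3 they lay between 0.04 below and 0.33 above the mean of replicates 1 and 2 on the log2 scale. Only 1.37% of all genes differed more than 2-fold there, so the absence of such a difference does not set the 10 apart. Nupr1 (0.327) and Atf3 (0.305) lay furthest above. Where treating these libraries apart ended or made a call of one of the 10 genes, both values are given. Moves of a value by over 1.5 times are also given. Exceptions are Cebpb in IP RNA and Cebpg for IP against total RNA, whose small differences were never called.

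Among the 10 genes all but the phosphatase subunit gene Ppp1r15a were called lower in total RNA, though Cebpb only narrowly. With Pdx1 siRNA, 9 of the 10 genes were lower in total RNA and 0 were higher, where 29.2% of all genes were called lower and 23.8% higher. Their median log2 difference was -0.72, against -0.04 over all genes. In IP RNA 7 of the 10 were lower and 1, Ppp1r15a, was higher, where 30.4% of all genes were called lower and 29.2% higher. The median was -0.40, against -0.01 over all genes. In bulk RNA, fewer cells expressing a gene and less RNA per cell cannot be told apart. Calls rest on an adjusted p under 0.05 over all genes. The same 9 genes in total RNA and 7 in IP RNA had every Pdx1 siRNA library below every NT library, where 32.6% of all genes did in either fraction. Ppp1r15a in IP RNA had every library above, where 32.3% did.

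Atf4 is the factor through which the integrated stress response acts on transcription (chr15:80255184-80257545, plus strand, 3 exons). Its level was 124, 102 and 97.8 CPM in Pdx1 siRNA total RNA, against 196, 157 and 188 CPM in NT total RNA. Its IP level was 195, 186 and 189 CPM with Pdx1 siRNA, against 275, 251 and 288 CPM with NT. The groups did not overlap in either fraction, and the level was 1.67-fold lower in total RNA (log2 difference -0.74, SE 0.10, adjusted p = 2.04e-05) and 1.43-fold lower in IP RNA (-0.52, SE 0.10, adjusted p = 0.000443). Atf4 was the most abundant of the 10 genes, at the 95.5th percentile of all genes in NT total RNA.

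Atf5 encodes a related factor, also under translational control, that in mouse beta cells is known to favour survival (chr7:44812256-44816658, minus strand, 3 exons). Its level was 40.4, 45.4 and 45.0 CPM in Pdx1 siRNA total RNA, against 91.1, 86.0 and 90.0 CPM in NT total RNA. The IP libraries had 89.7, 88.1 and 94.9 CPM with Pdx1 siRNA, against 130, 124 and 138 CPM with NT. It was 2.04-fold lower in total RNA (log2 difference -1.03, SE 0.07, adjusted p = 1.71e-08) and 1.43-fold lower in IP RNA (-0.52, SE 0.07, adjusted p = 1.87e-05), again with no overlap. The transcript counted is classed as non-coding in RefSeq, and the coding transcript, which seems to share nearly all its reads, gave nearly equal counts.

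Atf3 encodes a stress-induced factor of the same family that is known to repress as well as activate genes (chr1:191170296-191183333, minus strand, 4 exons). It was low, with 77 to 217 counts per library. It had 2.46, 2.29 and 2.12 CPM in Pdx1 siRNA total RNA, against 3.20, 3.12 and 4.26 CPM in NT total RNA, and was 1.55-fold lower (log2 difference -0.63, SE 0.15, adjusted p = 0.00216). The IP level was 4.15, 4.21 and 3.54 CPM with Pdx1 siRNA, against 4.95, 4.58 and 5.89 CPM with NT, and was 1.30-fold lower (-0.38, SE 0.14, adjusted p = 0.029). The libraries did not overlap in either fraction, but the call in IP RNA was lost without NT IP replicate 3 (-0.27, adjusted p = 0.124) or without Pdx1 siRNA IP replicate 3 (-0.30, adjusted p = 0.125). Without NT IP replicates 1 and 2 the IP difference was -0.57 (adjusted p = 0.0205), and with the set of 4 IP libraries as a term also -0.57 (adjusted p = 0.0153).

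Ddit3 encodes CHOP, the C/EBP-related factor that ATF4 induces and that promotes cell death under lasting stress (chr10:127290793-127296291, plus strand, 4 exons). It had 15.7, 14.8 and 13.4 CPM in Pdx1 siRNA total RNA, against 26.3, 21.9 and 23.1 CPM in NT total RNA. IP RNA held 30.5, 27.7 and 29.3 CPM with Pdx1 siRNA, against 41.5, 35.8 and 39.4 CPM with NT. Every Pdx1 siRNA library lay below every NT library of its fraction, and Ddit3 was 1.63-fold lower in total RNA (log2 difference -0.70, SE 0.09, adjusted p = 1.03e-05) and 1.34-fold lower in IP RNA (-0.42, SE 0.09, adjusted p = 0.000721). Because 9.1% of its transcript overlaps genes on the opposite strand, Mars and Gm4189, and the counting is not stated to use strand, some of these reads may belong to them.

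Cebpg and Cebpb encode C/EBP-family proteins, which can form dimers with ATF4 and CHOP. Cebpg (chr7:35046422-35056566, minus strand, 2 exons) had 34.0 to 42.9 CPM in Pdx1 siRNA total RNA, against 45.2 to 55.2 CPM in NT total RNA, and was 1.38-fold lower (log2 difference -0.47, SE 0.10, adjusted p = 0.00143). In IP RNA Cebpg had 33.6 to 42.0 CPM with Pdx1 siRNA, against 46.4 to 49.0 CPM with NT, and was 1.26-fold lower (-0.33, SE 0.11, adjusted p = 0.0128). Both fractions thus showed lower Cebpg without overlap. The IP call for Cebpg was lost without Pdx1 siRNA IP replicate 1 (-0.27, adjusted p = 0.0583). It was also lost, at a larger difference, without NT IP replicates 1 and 2 (-0.37, adjusted p = 0.0681) and with the set of 4 IP libraries as a term (-0.37, adjusted p = 0.0524).

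Cebpb (chr2:167688915-167690432, plus strand, 1 exon) was low, with 80 to 253 counts per library, and 20.7% of its transcript overlaps Tmem189 on the opposite strand. It had 2.46, 3.30 and 2.70 CPM in Pdx1 siRNA total RNA, against 3.48, 3.31 and 3.93 CPM in NT total RNA. The highest Pdx1 siRNA library and the lowest NT library were nearly level, and the 1.26-fold lower mean passed the test narrowly (log2 difference -0.33, SE 0.13, adjusted p = 0.0353). The call was lost without NT total replicate 1 (-0.32, adjusted p = 0.0822), 2 (-0.35, adjusted p = 0.0514) or 3 (-0.22, adjusted p = 0.218), and without Pdx1 siRNA total replicate 1 (-0.25, adjusted p = 0.121) or 3 (-0.30, adjusted p = 0.105). IP libraries enter the fit through the scaling and the shared spread, and the call was also lost without Pdx1 siRNA IP replicate 1 (-0.31, adjusted p = 0.0542) and without NT IP replicates 1 and 2 (-0.33, adjusted p = 0.0516). In IP RNA Cebpb had 6.25, 6.28 and 7.34 CPM with Pdx1 siRNA, against 6.25, 6.81 and 6.34 CPM with NT, overlapping groups with a log2 difference of 0.04 (SE 0.11, adjusted p = 0.783).

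Trib3 encodes a pseudokinase that ATF4 and CHOP induce and that is known to feed back on ATF4 (chr2:152337425-152344060, minus strand, 4 exons). It had 4.82, 7.16 and 7.50 CPM in Pdx1 siRNA total RNA, against 14.96, 15.2 and 15.8 CPM in NT total RNA. The IP level of Trib3 was 10.2, 11.2 and 13.4 CPM with Pdx1 siRNA, against 21.7, 21.2 and 21.3 CPM with NT. The NT libraries lay close together and far above all Pdx1 siRNA libraries, which varied more. Trib3 had the largest log2 difference of the 10 genes in both fractions, being 2.34-fold lower in total RNA (-1.23, SE 0.13, adjusted p = 9.47e-07) and 1.84-fold lower in IP RNA (-0.88, SE 0.12, adjusted p = 1.72e-05).

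Chac1 encodes an enzyme that degrades glutathione and is a target of ATF4 (chr2:119351242-119354326, plus strand, 3 exons). It had 14.3, 15.2 and 14.98 CPM in Pdx1 siRNA total RNA, against 24.7, 24.1 and 28.4 CPM in NT total RNA. In IP RNA it had 26.2, 29.3 and 28.0 CPM with Pdx1 siRNA, against 36.5, 38.4 and 41.1 CPM with NT. Neither fraction had overlapping groups, and Chac1 was 1.74-fold lower in total RNA (log2 difference -0.80, SE 0.08, adjusted p = 8.64e-07) and 1.39-fold lower in IP RNA (-0.47, SE 0.08, adjusted p = 0.000106).

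Nupr1 encodes a small stress-induced chromatin protein (chr7:126623246-126625470, minus strand, 3 exons), and the effect of the siRNA on it passed the test in total RNA alone. It had 12.4, 11.98 and 12.9 CPM in Pdx1 siRNA total RNA, against 22.2, 18.96 and 21.0 CPM in NT total RNA, and was 1.67-fold lower (log2 difference -0.74, SE 0.10, adjusted p = 1.49e-05). In IP RNA it had 35.3, 35.1 and 38.8 CPM with Pdx1 siRNA, against 37.1, 35.0 and 45.3 CPM with NT. These groups overlapped, with a log2 difference of -0.10 (SE 0.09, adjusted p = 0.346). The IP value rests on NT IP replicate 3, the highest library. Without it the difference was 0.01 (adjusted p = 0.906). Without NT IP replicates 1 and 2 it was -0.31 (adjusted p = 0.0343), and with the set of 4 IP libraries as a term also -0.31 (adjusted p = 0.0242).

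Ppp1r15a, which encodes the stress-induced regulatory subunit GADD34 of the eIF2α phosphatase, went against the rest (chr7:45522917-45526268, minus strand, 3 exons). It had 34.7, 37.0 and 36.4 CPM in Pdx1 siRNA total RNA, against 35.3, 30.0 and 34.8 CPM in NT total RNA. These groups overlapped, with a log2 difference of 0.11 (SE 0.08, adjusted p = 0.282). In IP RNA it had 56.2, 57.7 and 64.7 CPM with Pdx1 siRNA, against 42.7, 39.2 and 44.4 CPM with NT. All Pdx1 siRNA IP libraries were above all NT IP libraries, and the level was 1.42-fold higher (log2 difference 0.50, SE 0.08, adjusted p = 8.98e-05), a call that held in each of the 24 alternative settings at 0.42 to 0.54. Ppp1r15b, the constitutive counterpart of GADD34, named here after its values were seen, averaged 192 CPM in Pdx1 siRNA IP RNA and 194 CPM in NT IP RNA (log2 difference -0.01, adjusted p = 0.913).

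**Figure D1:**
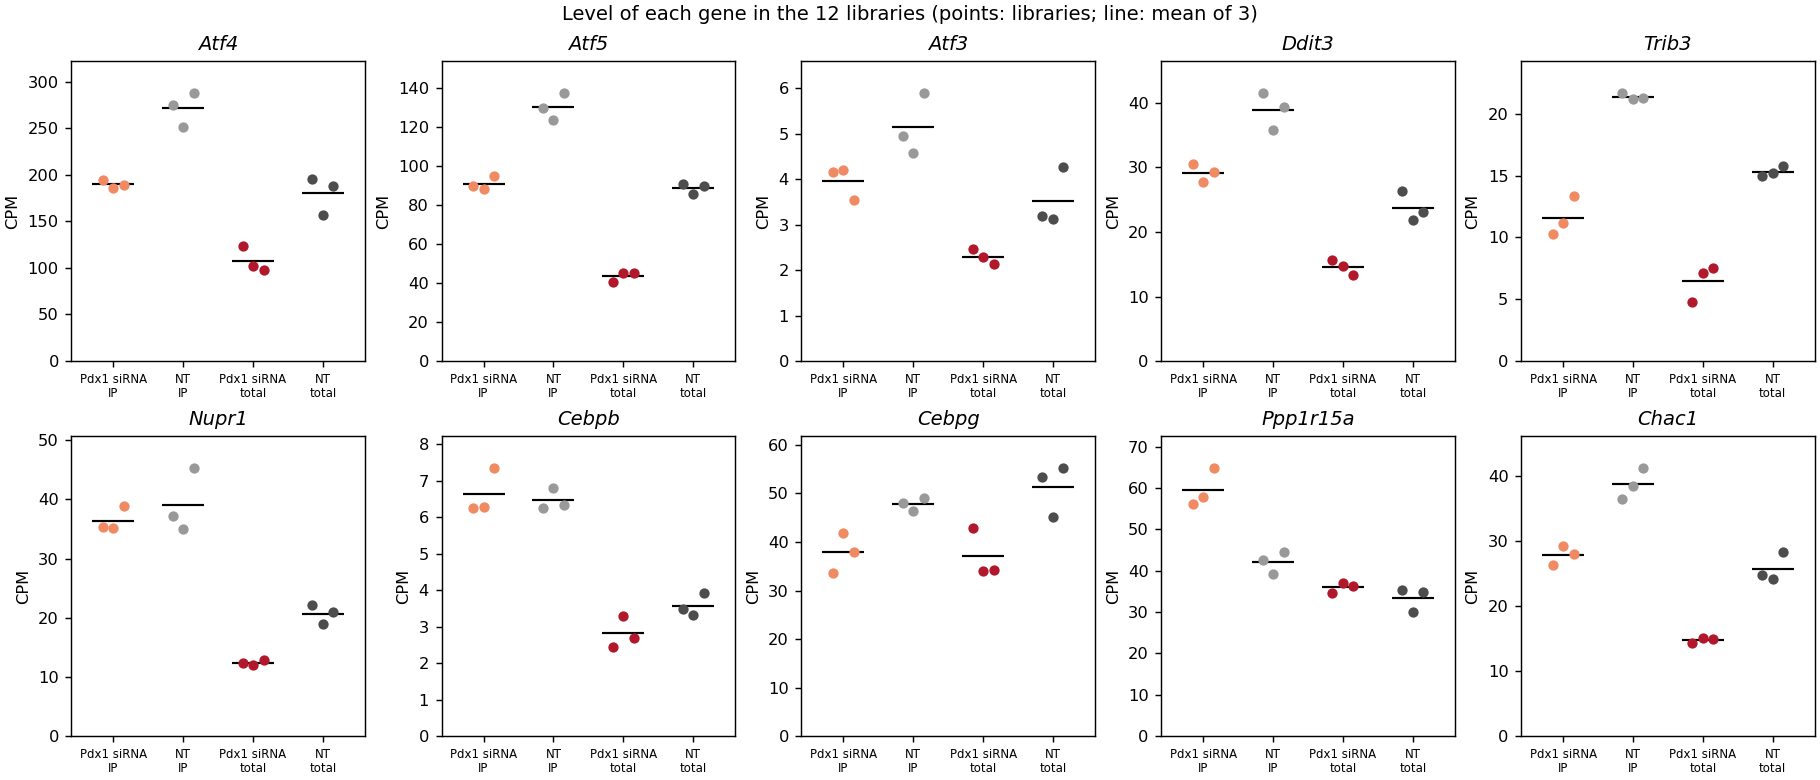
Level of each of the 10 genes in each of the 12 libraries, in CPM on axes that start at 0, with 1 panel per gene, points for libraries and lines for the mean of 3 libraries. Trib3 is at 4.82 to 7.50 CPM in Pdx1 siRNA total RNA and at 14.96 to 15.8 CPM in NT total RNA, while Ppp1r15a is at 56.2 to 64.7 CPM in Pdx1 siRNA IP RNA and at 39.2 to 44.4 CPM in NT IP RNA.

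The siRNA effect was then compared between the fractions, as the difference of the log2 differences, IP minus total. It was above 0 for all 10 genes, where 52.0% of all genes were above 0, and its median was 0.34, against 0.01 over all genes. Most of the 10 genes were thus less far below NT in IP RNA than in total RNA, and Ppp1r15a was further above it. With edgeR no single difference passed an adjusted p of 0.05, which 0.229% of all genes (29) did. An unadjusted p under 0.05 was reached by 6 of the 10, where 17.0% of all genes did. DESeq2 called more genes, 327 over all genes and 2 of the 10. These 2 were Nupr1, with a difference of 0.63 (SE 0.13, edgeR adjusted p = 0.0564, DESeq2 adjusted p = 0.00606), and Atf5, with 0.51 (SE 0.10, edgeR adjusted p = 0.0564, DESeq2 adjusted p = 0.000569). The next largest were Ppp1r15a at 0.39 (SE 0.12, adjusted p = 0.113), Cebpb at 0.37 (SE 0.17, adjusted p = 0.275) and Trib3 at 0.35 (SE 0.17, adjusted p = 0.316). Leaving out NT IP replicate 3 gave 2 calls (Nupr1 at 0.75, adjusted p = 0.000682, and Atf5 at 0.55, adjusted p = 0.00755), beside 571 over all genes. Leaving out Pdx1 siRNA total replicate 1 also gave 2, Nupr1 at 0.63 (adjusted p = 0.0359) and Atf5 at 0.46 (adjusted p = 0.0341), beside 383 over all genes. Leaving out Pdx1 siRNA IP replicate 2 gave 1, Atf5 at 0.53 (adjusted p = 0.0497), beside 66 over all genes. Treating the set of 4 IP libraries apart lowered both Nupr1 and Atf5. Without NT IP replicates 1 and 2 Nupr1 was at 0.42 (adjusted p = 0.602) and Atf5 at 0.43 (adjusted p = 0.553). With the set as a term Nupr1 was at 0.42 (adjusted p = 0.425) and Atf5 at 0.43 (adjusted p = 0.386). Atf4 (reported at 0.23) was then at 0.14 in both settings, and Atf3 (reported at 0.26) at 0.06.

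**Figure D2:**
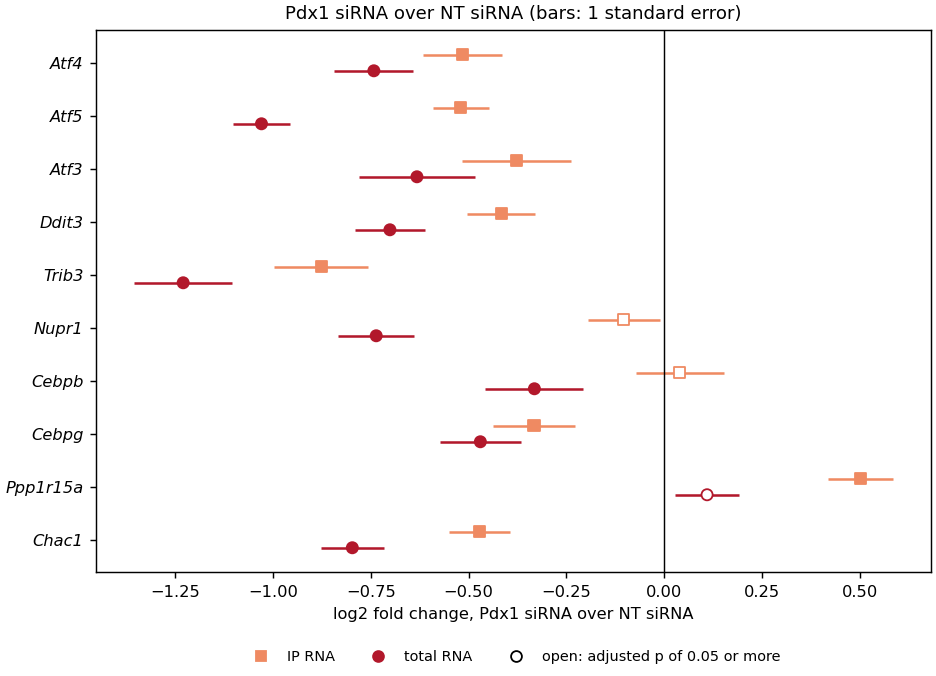
Log2 fold change of Pdx1 siRNA over NT siRNA for the 10 genes in IP RNA and in total RNA, with bars of 1 standard error and open symbols for an adjusted p of 0.05 or more. All genes but Ppp1r15a lie below 0 in total RNA, and in IP RNA Ppp1r15a lies at 0.50 while Nupr1 (-0.10) and Cebpb (0.04) have open symbols near 0.

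To see which genes kept step with Atf4, the counts of each were divided by those of Atf4 in the same library. The ratio of Ddit3 to Atf4 was 0.127, 0.145 and 0.137 in Pdx1 siRNA total RNA, against 0.135, 0.139 and 0.123 in NT total RNA. In IP RNA it was 0.157, 0.149 and 0.155 with Pdx1 siRNA, against 0.151, 0.142 and 0.137 with NT. Chac1 had a ratio of 0.115, 0.149 and 0.153 in Pdx1 siRNA total RNA, against 0.126, 0.153 and 0.151 in NT total RNA. For both genes the groups overlapped in both fractions, with means that differed by 1.03-fold (Ddit3, total), 1.07-fold (Ddit3, IP), 0.97-fold (Chac1, total) and 1.03-fold (Chac1, IP). Atf3 also overlapped in both fractions, with a ratio of means of 1.09 in total RNA and 1.11 in IP RNA. Nupr1 (1.01), Cebpb (1.34) and Trib3 (0.723) overlapped in total RNA alone, and Atf5 (0.996) and Cebpg (1.13) in IP RNA alone. Overlap of 3 libraries with 3 does not show that the ratios were equal.

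Ppp1r15a moved away from Atf4 in both fractions. Its ratio was 0.280, 0.364 and 0.372 in Pdx1 siRNA total RNA, against 0.181, 0.191 and 0.186 in NT total RNA, a ratio of means of 1.82. In IP RNA it was 0.289, 0.310 and 0.343 with Pdx1 siRNA, against 0.155, 0.156 and 0.155 with NT, a ratio of means of 2.02. Cebpg in total RNA (ratio of means 1.21) and Nupr1 (1.33) and Cebpb (1.46) in IP RNA also lay above all NT libraries. Since Atf4 itself fell, a ratio above that of all NT libraries was common, being found for 77.2% of genes in total RNA and 69.2% in IP RNA. A ratio below all NT libraries was found for 3.42% of genes in total RNA, Atf5 among them with a ratio of means of 0.827, and for 6.75% in IP RNA, Trib3 among them with a ratio of means of 0.774.

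**Figure D3:**
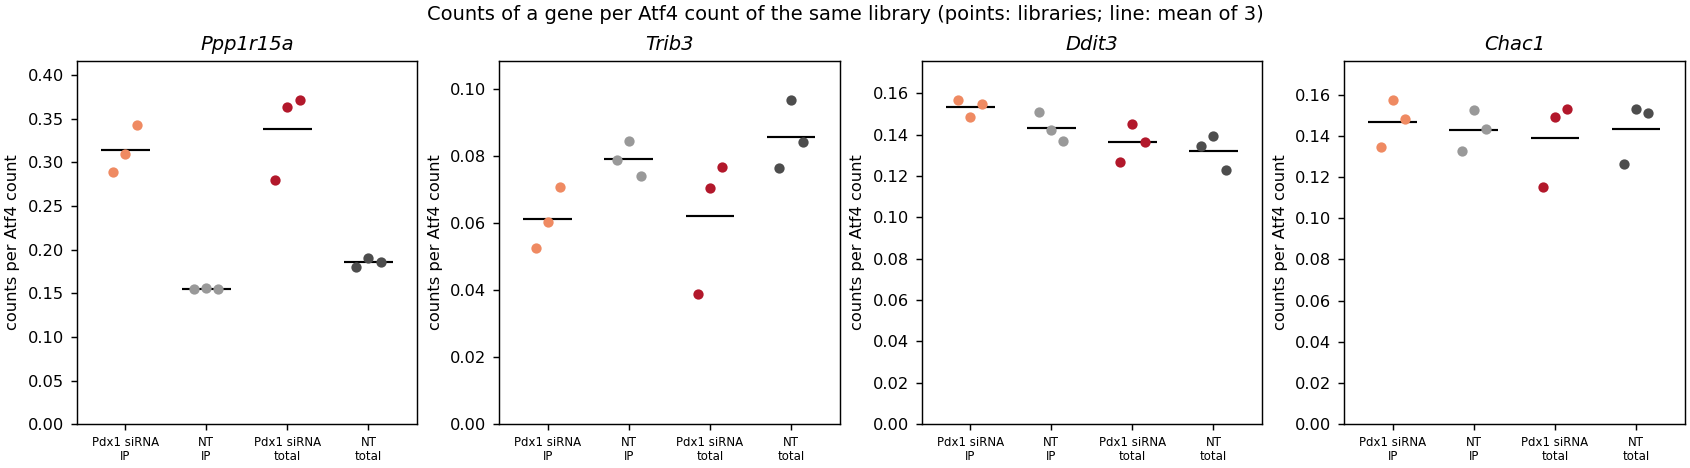
Counts of 4 genes per count of Atf4 in each of the 12 libraries, with 1 panel per gene, points for libraries and lines for the mean of 3 libraries. The libraries of Ddit3 and Chac1 overlap between siRNAs, whereas Ppp1r15a has 0.280 to 0.372 counts per Atf4 count in Pdx1 siRNA total RNA and 0.181 to 0.191 in NT total RNA.

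In TMM-scaled CPM, ribosome-bound RNA held more of most of these mRNAs than total RNA did. These levels are not plain shares of the library, because the TMM factors were lower for IP libraries. The factors were 0.984 to 1.011 for NT IP libraries, against 1.22 to 1.231 for NT total libraries. For Pdx1 siRNA they were 0.752 to 0.866 (IP), against 0.95 to 1.066 (total). Plain shares would thus show smaller rises in IP RNA, and were not tested. With Pdx1 siRNA, 9 of the 10 genes were higher in IP than in total RNA, where 36.3% of all genes were, and their median log2 difference was 0.87, against -0.02 over all genes. With NT, 9 of the 10 were also higher, where 33.8% of all genes were, and the median was 0.57, against -0.02. Nupr1 was high in IP RNA under both siRNAs, averaging 36.4 ± 2.1 CPM in Pdx1 siRNA IP RNA and 12.4 ± 0.5 CPM in Pdx1 siRNA total RNA (SD, n = 3 each), 2.93-fold higher (log2 difference 1.55, SE 0.10, adjusted p = 4.33e-09). It averaged 39.1 ± 5.4 CPM in NT IP RNA and 20.7 ± 1.6 CPM in NT total RNA, 1.89-fold higher (0.92, SE 0.09, adjusted p = 6.22e-07). Cebpb was 2.34-fold higher with Pdx1 siRNA (log2 difference 1.22, SE 0.12, adjusted p = 2.81e-07) and 1.81-fold higher with NT (0.85, SE 0.12, adjusted p = 9.53e-06). Which of these genes differed most is not settled. Without NT IP replicate 3 the log2 difference with NT was 0.80 for Nupr1 and 0.87 for Cebpb. With the set of 4 IP libraries as a term that with Pdx1 siRNA was 1.23 for Nupr1 and 1.27 for Cebpb. Atf4 was 1.76-fold higher with Pdx1 siRNA (adjusted p = 2.91e-06) and 1.51-fold higher with NT (adjusted p = 9.18e-05). Ppp1r15a was 1.65-fold (adjusted p = 1.07e-06) and 1.26-fold higher (adjusted p = 0.00196). Cebpg was the exception, with overlapping libraries and a log2 difference of 0.04 with Pdx1 siRNA (SE 0.11, adjusted p = 0.768) and -0.10 with NT (SE 0.10, adjusted p = 0.394). Its counted transcript was also the longest of the 10, at 4709 bases, against 829 (Nupr1) to 2333 (Ppp1r15a) for the others. The shares over all genes were not matched for transcript length, and its part in the IP to total differences was not tested. The comparisons of IP with total RNA use the same 12 libraries as the siRNA effects, so they are not separate evidence. The Atf3 call with Pdx1 siRNA (log2 difference 0.79) was lost with the set of 4 IP libraries as a term (0.49, adjusted p = 0.0905).

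**Figure D4:**
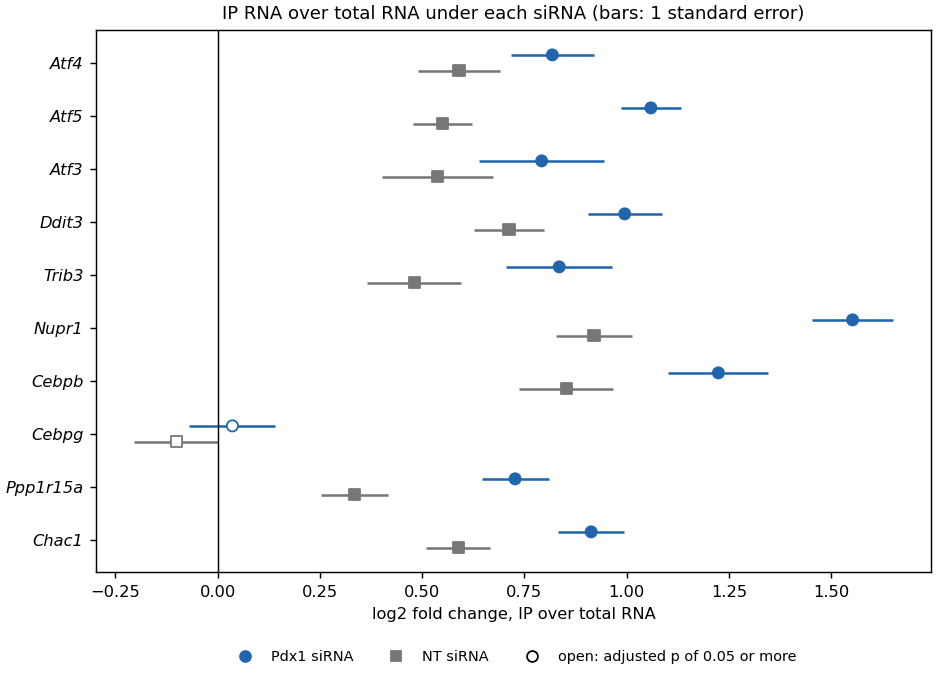
Log2 fold change of IP RNA over total RNA for the 10 genes under each siRNA, with bars of 1 standard error and open symbols for an adjusted p of 0.05 or more. Nupr1 lies at 1.55 with Pdx1 siRNA and 0.92 with NT, and Cebpg alone has open symbols, at 0.04 and -0.10.

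Per length, in CPM per kb of the counted transcript, the same genes were at the top and at the bottom in every group. Atf4 was highest at 110 CPM per kb in Pdx1 siRNA IP RNA, 157 in NT IP RNA, 62.5 in Pdx1 siRNA total RNA and 104 in NT total RNA, and Atf5 came next with 50.1, 71.8, 24.0 and 49.0 CPM per kb in the same groups. Atf3 was lowest in all groups, with 2.00, 2.59, 1.15 and 1.78 CPM per kb, and Cebpb was next to lowest with 4.41, 4.30, 1.88 and 2.38 CPM per kb. Between them lay Nupr1, Ddit3, Ppp1r15a, Chac1, Cebpg and Trib3, whose order differed between groups. In Pdx1 siRNA total RNA the libraries of Ddit3 (mean 16.4 CPM per kb), Ppp1r15a (15.4) and Nupr1 (14.98) overlapped from each gene to the next, as did those of Chac1 (9.04) and Cebpg (7.87). In NT total RNA Ddit3 (26.7) and Nupr1 (25.0) overlapped, as did Chac1 (15.7) and Ppp1r15a (14.3). In NT IP RNA Nupr1 (47.2) and Ddit3 (43.7) overlapped, and in Pdx1 siRNA IP RNA no neighbours did. Ppp1r15a, at 25.5 CPM per kb, was above Chac1 (17.01) in Pdx1 siRNA IP RNA, whereas in NT IP RNA it was at 18.0, below Chac1 (23.6).

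Upstream of ATF4, a list of 23 eIF2α kinases, phosphatase subunits, eIF2 and eIF2B subunits and their partners had 3 genes higher and 6 lower in total RNA and 3 higher and 7 lower in IP RNA with Pdx1 siRNA. Their median log2 difference was -0.02 in total RNA and -0.04 in IP RNA. Over all genes, as given above, 23.8% were called higher and 29.2% lower in total RNA, and 29.2% higher and 30.4% lower in IP RNA. This list lay near or below those shares. Dele1, whose product relays mitochondrial stress to the kinase HRI, averaged 79.8 CPM in Pdx1 siRNA total RNA and 114 CPM in NT total RNA (log2 difference -0.52, adjusted p = 0.000115), and fell by 0.67 on the log2 scale in IP RNA (adjusted p = 7.24e-06). Impact, an inhibitor of the amino acid sensor GCN2, was higher by 0.44 in total RNA (adjusted p = 0.000141), and Dnajc3, an ER co-chaperone known to inhibit eIF2α kinases, by 0.51 (adjusted p = 0.000116). Eif2ak3, which encodes the ER stress kinase PERK and is named here after its values were seen, averaged 212 CPM in Pdx1 siRNA total RNA and 148 CPM in NT total RNA (log2 difference 0.52, adjusted p = 0.000733), while the other 3 eIF2α kinase genes did not pass the test. Eif2ak1 averaged 59.1 CPM in Pdx1 siRNA total RNA and 55.5 CPM in NT total RNA (adjusted p = 0.29), Eif2ak2 10.2 CPM and 10.2 CPM (adjusted p = 0.924), and Eif2ak4 7.27 CPM and 8.68 CPM (adjusted p = 0.0512). Of the Eif2ak3 transcript 10.7% overlaps Gm43292.

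Downstream, where 29.2% of all genes were called lower in total RNA and 30.4% in IP RNA, of 14 measured genes for amino acid and one-carbon enzymes under ATF4 control 9 were lower and 1 was higher in total RNA, and 9 were lower and 2 higher in IP RNA. Their median log2 difference was -0.77 in total RNA and -0.63 in IP RNA. Psat1, an enzyme of serine synthesis, averaged 62.1 CPM in Pdx1 siRNA total RNA and 138 CPM in NT total RNA, and Mthfd2, an enzyme of mitochondrial one-carbon metabolism, 45.9 CPM and 83.0 CPM. Their log2 differences were -1.15 (adjusted p = 2.93e-09) and -0.86 (adjusted p = 6.27e-08). Of 9 amino acid transporter genes 5 were lower and 0 higher in total RNA and 4 lower and 0 higher in IP RNA. Slc7a5, the large neutral amino acid transporter, averaged 306 CPM in Pdx1 siRNA total RNA and 448 CPM in NT total RNA (log2 difference -0.55, adjusted p = 0.000485). Of 30 other known targets of ATF4 and CHOP 16 were lower and 6 higher in total RNA (median -0.21), and 13 lower and 7 higher in IP RNA (median -0.15). The higher genes of this list were no more frequent than the 23.8% and 29.2% called higher over all genes. Eif4ebp1, which encodes an inhibitor of cap-dependent translation, fell by 1.26 on the log2 scale in total RNA (adjusted p = 8.91e-08). Higher were Tnfrsf10b (log2 difference 1.89, adjusted p = 3.84e-08, with 12.7% of its transcript in near-identical copies) and Bbc3 (0.51, adjusted p = 0.000346). Both are cell death genes, but not the only ones of this list. Bcl2l11, named here after its values were seen, averaged 18.2 CPM in Pdx1 siRNA total RNA and 20.9 CPM in NT total RNA.

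The list of ER chaperones and of the XBP1 and ATF6 branches had more genes higher than lower. Of its 23 members 11 were higher and 1 was lower in total RNA (median 0.23), where 23.8% of all genes were called higher and 29.2% lower. In IP RNA, 9 were higher and 1 lower (median 0.19), where 29.2% were called higher and 30.4% lower. Xbp1, the factor of the IRE1 branch, averaged 489 CPM in Pdx1 siRNA total RNA and 326 CPM in NT total RNA (log2 difference 0.58, adjusted p = 2.65e-05), and Ern1, which encodes IRE1, was higher by 0.78 (adjusted p = 7.34e-05). Of 24 other bZIP factors measured, Xbp1 and Atf6 among them, 9 were higher and 8 lower in total RNA and 12 higher and 6 lower in IP RNA, with medians of 0.03 and 0.22, beside the same shares over all genes. Creb3l1, an ER-anchored factor, averaged 10.6 CPM in Pdx1 siRNA total RNA and 3.08 CPM in NT total RNA (log2 difference 1.79, adjusted p = 4.16e-08). The AP-1 genes Jund (0.86, SE 0.13, adjusted p = 0.0115) and Junb (0.74, SE 0.14, adjusted p = 0.0399) were the only genes of these lists whose siRNA effect differed between IP and total RNA by edgeR, though 52.6% of the Jund transcript overlaps another gene. Whether Jund and Junb kept these calls with the set of 4 IP libraries as a term is not given here. Over all genes such calls fell from 29 to 5 with that term.

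**Figure D5:**
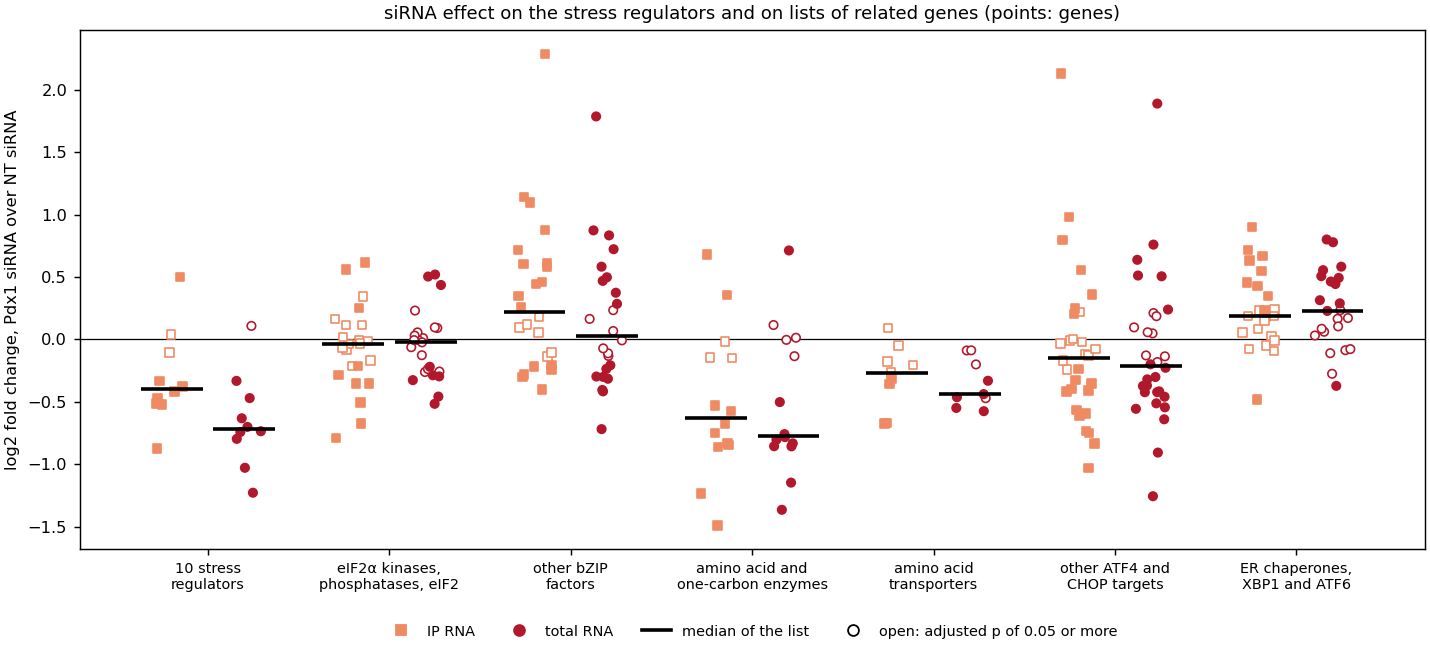
Log2 fold change of Pdx1 siRNA over NT siRNA in IP RNA (left of each pair) and total RNA (right) for the 10 stress regulators and 6 lists of related genes, with points for genes, black lines for the median of a list and open symbols for an adjusted p of 0.05 or more. The medians in total RNA are -0.72 for the stress regulators, -0.77 for amino acid and one-carbon enzymes and 0.23 for the ER chaperone list.

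Likeness of pattern was measured as the root mean square difference between genes in log2(CPM + 0.5), centred on each gene's mean over the 12 libraries, over 10139 other genes that averaged 5 CPM or more. The 5 genes nearest to Atf4 outside the pathway were Gins4 (0.07), Pole4 (0.07), Pde6d (0.08), Med9 (0.08) and Pdap1 (0.08), against a median of 0.56 over all these genes. Among the 10 stress genes Ddit3 lay nearest to Atf4 at 0.10, followed by Chac1 at 0.13, and Ppp1r15a lay furthest at 0.49. Nearest to Ddit3 were Rps19bp1 (0.05), Ten1 (0.07), Snrpd3 (0.08), Ppp1r14b (0.08) and Mrps6 (0.08), with a median of 0.58 over all genes. The 12 points of each pattern share their libraries and depth, and the distance is a description only.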

How the data were processed

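The authors deposited raw read counts for each RefSeq transcript, 1 table a library, with no normalization. Per the submitters' processing notes, TopHat2, featureCounts and mm10 were used. No versions are given there, and neither the strand setting nor the handling of reads with several matches is stated. Of 17133 transcripts 16838 matched a symbol in RefSeq's table of GRCm38.p6, and the other 295 held 0.577% to 0.834% of counts and were left out. A read seems to be counted in every transcript it lies in, since the coding and non-coding transcripts of Atf5 had nearly equal counts. This is inferred from the counts and is not stated in the notes. The transcript with the most counts therefore stood for each gene. The lowest total over the 12 libraries was 141, so genes below some minimum are not analysed here.

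All 12 libraries entered 1 quasi-likelihood fit in edgeR 4.0.16 (R 4.3.3) with a mean per group and TMM scaling. The default expression filter removed 0 genes, and Benjamini-Hochberg adjustment ran over 12643 genes. The procedure was tested on simulated counts. SE is derived from the log2 difference and the F statistic. The labels do not say that replicates came from separate cultures, so p-values measure the spread between libraries, which may be technical. Counts are PCR reads without molecular identifiers, so counting error is a lower limit. Same-numbered libraries deviated together in some pairs but not in every pair (correlations of -0.101 to 0.501 over all pairs of groups). Between NT total and Pdx1 siRNA total RNA 2 of 3 same-numbered pairs were over 0.1, and between NT IP and Pdx1 siRNA IP RNA 1 of 3. The numbers were not taken as pairs, and a replicate block was run as an alternative.

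The 10 genes and the lists were chosen with earlier results of these data known. Named are the 10 genes, Pdx1, up to 3 genes with the smallest p of each list and siRNA contrast, and the 5 genes nearest in pattern to Atf4 and to Ddit3. Of the list genes so named, some are given by their list's counts alone. Alternatives were other scalings, filters and transcripts, DESeq2 1.42.0, a term for the set of 4 IP libraries, a replicate block and leaving out each library. The coding transcript of Atf5 was added as an alternative after seeing the data.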

Additional observations from a re-analysis of the deposited data

How the results depend on the processing

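In 24 alternative settings (23 for the difference between fractions), counts of called genes among the 10 kept within 1.5 times the value reported for both siRNA effects and for IP against total RNA: 8 or 9 in total RNA, 7 or 8 in IP RNA, and 8 or 9 and 9 for IP against total with Pdx1 siRNA and NT. The count of 0 for the difference of the siRNA effect, IP minus total, became 2 with DESeq2, beside 327 over all genes. It ranged from 0 to 2 when each library was left out. With a replicate block, a pairing that the correlations support only in part, it was 2, beside 373 over all genes. These were Atf5 at 0.51 (adjusted p = 0.0211) and Nupr1 at 0.64 (adjusted p = 0.0176). The other counts with the block were 9, 8, 9 and 9. Directions turned only for differences that were not called: Nupr1 in IP RNA ranged from -0.184 to 0.013 (without NT IP replicate 3) when each library was left out, Cebpb in IP RNA from -0.044 (without Pdx1 siRNA IP replicate 3) to 0.081, and Cebpg for IP against total RNA with Pdx1 siRNA was -0.009 with upper-quartile scaling, -0.017 with the set of 4 IP libraries as a term, and from -0.044 to 0.153 when each library was left out, being below 0 without Pdx1 siRNA IP replicate 2 (-0.044), Pdx1 siRNA total replicate 2 (-0.023) and Pdx1 siRNA total replicate 3 (-0.017). The cause was not tested. Cebpb in total RNA lost its call in 11 settings at -0.35 to -0.22. Over all genes, the difference between fractions was called for 29 genes and for 4 to 571 across settings, and the IP effect for 7542 genes, against 5212 with the set of 4 IP libraries as a term and 4900 without NT IP replicates 1 and 2. Depth limits Atf3 and Cebpb, with 77 to 253 counts per library.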
